A study of Homo sapiens with 4 samples.

Results

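NQO1 and 8 genes of NADPH supply and aldo-keto reduction were followed in a breast cancer line, MDA-MB-231, and a melanoma line, MDA-MB-435, with and without CPYPP. The genes were chosen by name, as genes linked to the transcription factor NRF2 in NADPH supply or in the reduction of quinones and carbonyls. The choice was made with earlier results of these data known. All 9 were found by symbol among the 61806 genes of the count table. They were NQO1, PGD, TALDO1, TKT, ME1, AKR1B1, AKR1B10, AKR1C1 and AKR1C3. All are protein-coding, and in GRCh38 PGD lies on chromosome 1 (10398592 to 10420511, plus strand), TALDO1 on chromosome 11 (747415 to 765012, plus), TKT on chromosome 3 (53224712 to 53256052, minus) and ME1 on chromosome 6 (83210402 to 83431051, minus). Poly(A) RNA was sequenced in 4 libraries, 1 per condition, namely control MDA-MB-231 and MDA-MB-231 after CPYPP for 6 h, and the same pair for MDA-MB-435. All 4 were wild type by label, and the vehicle of the controls is not given in the sources used here. CPYPP, an inhibitor of DOCK exchange factors, was used in the study to set off paraptosis, a vacuole-forming cell death. Its dose was 10 µM, in a treatment description that names MDA-MB-435 for every sample, so the line was taken from each sample's own cell line label.

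NRF2 is held at a low level by KEAP1 and is freed when electrophiles or oxidants modify KEAP1. It then binds antioxidant response elements together with small MAF proteins, at sites that BACH1 can occupy as a repressor. NQO1 reduces quinones in a single step that takes up a pair of electrons and spends NADPH or NADH. The pentose phosphate pathway and malic enzyme return NADP to NADPH, and aldo-keto reductases spend NADPH to turn aldehydes and ketones into alcohols.

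The libraries held between 17196385 and 22663954 counts, and the 9 genes together took 0.115% of the counts in control MDA-MB-231 and 0.144% after CPYPP. In MDA-MB-435 they took 0.125% in the control and 0.170% after CPYPP. The 95% exact binomial intervals of these shares, 0.113% to 0.116% and 0.142% to 0.146% in MDA-MB-231, did not overlap, nor did those in MDA-MB-435, 0.123% to 0.126% and 0.168% to 0.172%. With 1 library per condition, these intervals and those of the folds below cover counting error alone, and no test was made within a line. Of the markers of the melanocyte lineage, SOX10 had 3031 and 707 counts in MDA-MB-435, control first, and 0 and 1 in MDA-MB-231. DCT had 658 and 464 counts in MDA-MB-435, and 1 and 3 in MDA-MB-231. The other markers of this list did not set the lines apart in that way. MITF had 1405 and 809 counts in MDA-MB-435, beside 1585 and 690 in MDA-MB-231, and PMEL had 13 and 4, beside 34 and 29. MLANA and TYR, pigment cell genes, had at most 14 counts in any library. Of 6 melanocyte markers, 2 changed over 2-fold after CPYPP in MDA-MB-435, both lower (SOX10 and PMEL), and 1 higher, MLANA, at 8 and 14 counts in MDA-MB-231. The 6 markers of mesenchymal breast cancer cells had median log2 fold changes of -0.27 and -0.49 after CPYPP. Between the controls, EGFR (12150 counts in MDA-MB-231 but 70 in the other line) and AXL (27961 and 12648) were called lower in MDA-MB-435, CAV1 stood at 0.573-fold and CD44 at 1.25-fold, and VIM was called higher at 2.40-fold. In the common fit described below, 2 markers of each list fell and 0 rose. The part of these marker changes in the results below was not tested.

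In each line, every gene of the 9 that could be measured had a higher normalised level after CPYPP than in the control. This held for 9 of 9 in MDA-MB-231 and 8 of 8 in MDA-MB-435, where ME1 had too few counts. Of all genes tested, 45.1% and 44.0% had a fold above 1. The median log2 fold change of the 9 was 0.57 in MDA-MB-231, beside -0.0449 over all genes tested, and that of the 8 was 0.78 in MDA-MB-435, beside -0.0655. A gene was called within a line where its fold was over 2 and it had at least 10 counts in 1 of the libraries compared. By that rule 1 of the 9, AKR1B10, was called higher in MDA-MB-231, where 5.02% of 16441 genes were called higher and 5.69% were called lower. MDA-MB-435 had 3 of the 8 called higher, AKR1B10, AKR1C1 and AKR1C3, against 3.62% of 16527 genes called higher and 10.7% lower. None of the 9 was called lower in either line. Because the 9 were chosen with earlier results of these data known, these counts are not independent evidence of a direction. The same holds for the counts of the common fit below.

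**Figure D1:**
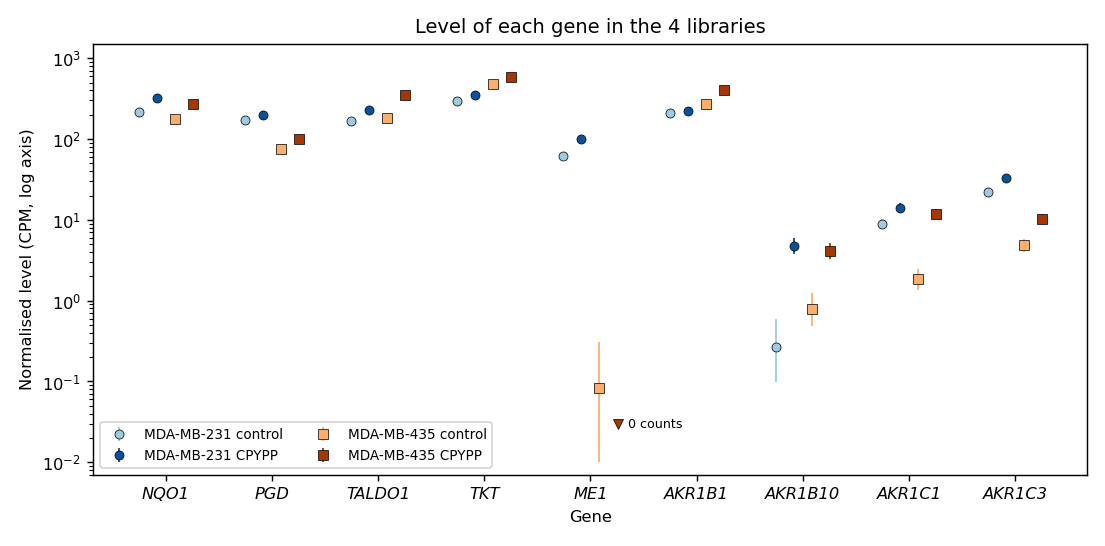
Normalised level of the 9 genes, in CPM (counts per 1000000 after scaling, log axis), in each library. Circles are MDA-MB-231 and squares MDA-MB-435, light for control and dark for CPYPP, and bars are 95% Poisson intervals of the counts. All measured genes lay higher after CPYPP, and ME1 had 2 counts and 0 counts in MDA-MB-435.

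An effect shared by the lines was then tested in 1 fit of all 4 libraries, blocked by line, in which the lines were the only repeats. By edgeR's quasi-likelihood test with Benjamini-Hochberg adjustment over 16748 genes, 5 of the 9 rose and 0 fell, where 4.99% of all genes rose and 3.58% fell. Those that rose were NQO1, TALDO1, AKR1B10, AKR1C1 and AKR1C3. The median common log2 fold change of the 9 was 0.68, and over all genes it was -0.0426. The test left 1 residual degree of freedom per gene, and edgeR moderates each gene's error towards a trend over all genes. Its error thus draws on the disagreement between the lines over many genes, not on that of 1 gene alone. It is not a spread between cultures. The call depended on the test, since DESeq2's Wald test called 2 of the 9, NQO1 and TALDO1, and without the block for the line 0 were called by edgeR.

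NQO1, the quinone reductase on chromosome 16 (69706996 to 69726668, minus strand), rose by nearly the same factor in both lines. It stood at 215 CPM in control MDA-MB-231 and 324 CPM after CPYPP, and at 179 CPM in control MDA-MB-435 and 272 CPM after CPYPP. The fold was 1.5 (95% counting interval 1.45 to 1.56) in MDA-MB-231, against 1.52 (1.46 to 1.59) in MDA-MB-435. Both CPYPP libraries thus lay above both controls. The ratio of the folds, MDA-MB-435 over MDA-MB-231, was 1.01 with an interval of 0.959 to 1.07. The common log2 fold change was 0.60 with a standard error of 0.117 (edgeR adjusted p = 0.00572). NQO1 did not reach a fold of 2 in either line, and it ranked 1847th of 16441 genes by fold in MDA-MB-231 and 1445th of 16527 in MDA-MB-435.

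Of the pentose phosphate pathway genes, TALDO1 and PGD had a larger fold in MDA-MB-435 than in MDA-MB-231 by counting error, and TKT had like folds in both. TALDO1, transaldolase of the non-oxidative branch, had 167 and 226 CPM in MDA-MB-231, against 182 and 352 CPM in MDA-MB-435, control first. Its fold was 1.35 (1.29 to 1.42) in MDA-MB-231, against 1.93 (1.86 to 2.01) in MDA-MB-435. The controls of the lines lay close together, and the CPYPP library of MDA-MB-435 stood well above the other three. The fold in MDA-MB-435 was 1.43 times that in MDA-MB-231 (1.35 to 1.52). TALDO1 rose in the common fit by a log2 fold change of 0.69 with a standard error of 0.137 (edgeR adjusted p = 0.00576). With upper-quartile normalisation its fold in MDA-MB-435 was 2.05, past the threshold.

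PGD, 6-phosphogluconate dehydrogenase, which makes NADPH in the oxidative branch, had 171 and 201 CPM in MDA-MB-231, against 75.1 and 99.9 CPM in MDA-MB-435. Here the line, not the treatment, set the order, as both MDA-MB-231 libraries lay above both MDA-MB-435 libraries. Its folds after CPYPP were 1.17 (1.12 to 1.23) and 1.33 (1.25 to 1.42), with a ratio between the lines of 1.13 (1.05 to 1.23). The common log2 fold change of PGD was 0.32 with a standard error of 0.120 (edgeR adjusted p = 0.124). TKT, transketolase of the non-oxidative branch, had the most CPM of the 9 in every library, with 293 and 351 in MDA-MB-231, against 476 and 581 in MDA-MB-435. Its folds, 1.20 (1.16 to 1.24) and 1.22 (1.19 to 1.25), were alike within counting error, with a ratio of 1.02 (0.974 to 1.06). The common log2 fold change of TKT was 0.27 with a standard error of 0.119 (edgeR adjusted p = 0.194), so neither PGD nor TKT passed the test. With upper-quartile normalisation PGD passed it, at a log2 fold change of 0.40 (edgeR adjusted p = 0.0362).

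ME1, the cytosolic malic enzyme, which turns malate and NADP into pyruvate and NADPH, was detected in MDA-MB-231 and all but missing from MDA-MB-435. It had 1356 counts (60.8 CPM) in control MDA-MB-231 and 1687 counts (101 CPM) after CPYPP, but 2 and 0 counts in MDA-MB-435. A count of 0 allows up to 3 counts, which is 0.157 CPM in the CPYPP library of MDA-MB-435. By the counts as they stand, the level in control MDA-MB-231 was 723 times that in control MDA-MB-435, with a counting interval of 200 to 5975.5. With the 2 counts set to the floor of 3, the level in MDA-MB-435 was 0.00207 times that in MDA-MB-231. In bulk RNA, fewer cells that carry a transcript and fewer copies per cell cannot be told apart. The fold after CPYPP in MDA-MB-231 was 1.66 (1.54 to 1.78). The common fit for ME1 (log2 fold change 0.68, standard error 0.231, edgeR adjusted p = 0.0869) rests on MDA-MB-231, and DESeq2 put it at -0.25. Without the filter on low counts the edgeR adjusted p was 0.0365. Of the other malic enzymes, mitochondrial ME2 had folds of 1.08 and 1.17, and mitochondrial ME3 had 1094 and 762 counts in MDA-MB-231, against 31 and 8 in MDA-MB-435.

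**Figure D2:**
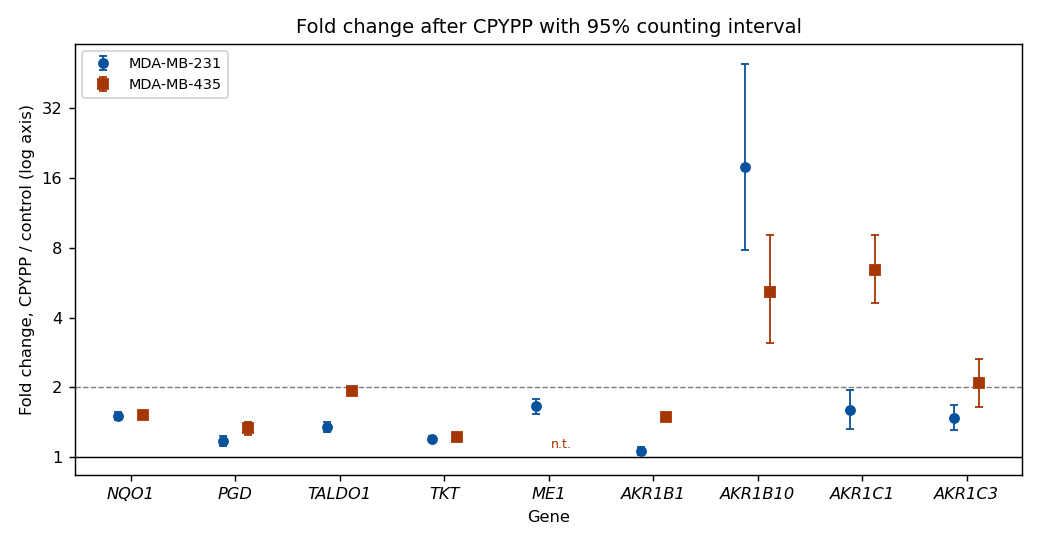
Fold change of each gene, CPYPP over control (log axis), with the 95% exact counting interval. Circles are MDA-MB-231, squares MDA-MB-435, the dashed line marks a fold of 2, and ME1 was not tested (n.t.) in MDA-MB-435. AKR1B10 lay above 2 in both lines, AKR1C1 and AKR1C3 in MDA-MB-435 alone, and the other genes below 2.

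Among the aldo-keto reductases, AKR1B10 had the largest fold of the 9 in MDA-MB-231 and AKR1C1 in MDA-MB-435, while AKR1B1 had the smallest in MDA-MB-231. AKR1B10, a reductase of retinal and other aldehydes, lies on chromosome 7 (134527567 to 134541412, plus strand) near AKR1B1 (134442356 to 134459284, minus strand), the aldose reductase that turns glucose into sorbitol. Both genes have coding sequences of 948 bases, of which 713 (75.2%) are identical. Their first 60 coding bases in GRCh38 are shown because the genes had such different folds, and capitals mark the bases of AKR1B10 that differ from AKR1B1, 21 in all.
AKR1B1, chr7:134459003-134459062, minus strand: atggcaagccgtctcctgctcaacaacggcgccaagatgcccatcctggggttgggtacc
AKR1B10, chr7:134527912-134527971, plus strand: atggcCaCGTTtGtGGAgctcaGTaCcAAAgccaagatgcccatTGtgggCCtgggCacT

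AKR1B10 was scarce in the controls and similar in level after CPYPP in both lines. It had 6 counts (0.269 CPM) in control MDA-MB-231 and 80 (4.78 CPM) after CPYPP, and 19 counts (0.799 CPM) in control MDA-MB-435 and 79 (4.13 CPM) after CPYPP. The fold was 17.8 (7.82 to 49.9) in MDA-MB-231, against 5.18 (3.11 to 9.05) in MDA-MB-435. It ranked 8th of 16441 and 59th of 16527 genes by fold. The fold in MDA-MB-435 was 0.291 times that in MDA-MB-231 (0.0909 to 0.814), and the lines lay farther apart in the controls than after CPYPP. AKR1B10 rose in the common fit by a log2 fold change of 3.08 with a standard error of 0.501 (edgeR adjusted p = 0.00152). Its 6 counts in control MDA-MB-231 fall below 10, so a minimum of 10 counts in both libraries removes it and leaves 0 of the genes called in that line. Each of its levels lies below 5 CPM, and the wide intervals reflect these low counts.

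AKR1B1 was abundant and moved in MDA-MB-435 more than in MDA-MB-231. It had 210 and 223 CPM in MDA-MB-231, a fold of 1.06 (1.02 to 1.11), and 268 and 401 CPM in MDA-MB-435, a fold of 1.49 (1.44 to 1.54). The ratio of these folds was 1.41 (1.33 to 1.49). The common log2 fold change of AKR1B1 was 0.33 with a standard error of 0.135 (edgeR adjusted p = 0.162), which did not pass the test. Most counts of the family are those of AKR1B1, so with AKR1B1, AKR1B10 and AKR1B15 summed the fold was 1.08 (1.04 to 1.13) in MDA-MB-231, against 1.5 (1.45 to 1.55) in MDA-MB-435.

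AKR1C1 (4963253 to 4983283) and AKR1C3 (5035354 to 5107686) lie on the plus strand of chromosome 10 and reduce ketosteroids and prostaglandins, AKR1C1 as an enzyme that inactivates progesterone and AKR1C3 as one that makes testosterone. The AKR1C genes are near copies of each other, and the first 60 coding bases show how little sequence tells them apart. Capitals mark bases that differ from AKR1C1.
AKR1C1, chr10:4963445-4963504, plus strand: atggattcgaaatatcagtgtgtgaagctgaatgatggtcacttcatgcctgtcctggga
AKR1C2, chr10:5003776-5003835, minus strand: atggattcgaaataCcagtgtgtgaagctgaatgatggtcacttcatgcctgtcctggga
AKR1C3, chr10:5048812-5048871, plus strand: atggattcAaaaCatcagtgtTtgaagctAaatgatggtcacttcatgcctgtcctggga
AKR1C2 differs from AKR1C1 at 1 of these bases and AKR1C3 at 4. Over the 969 coding bases, AKR1C1 is 98.0% identical to AKR1C2 and 91.8% identical to AKR1C3. Of all stretches of 100 bases in AKR1C1 transcripts, 16.7% also occur in AKR1C2, AKR1C3 or AKR1C4, against 1.75% for AKR1C3, 1.59% for AKR1B10 and 0 for the other 6 genes. How reads that match several genes were counted is not given in the sources used here, so the split between AKR1C1 and its neighbours is uncertain.

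AKR1C1 had 197 and 237 counts (8.83 and 14.2 CPM) in MDA-MB-231, against 44 and 226 counts (1.85 and 11.8 CPM) in MDA-MB-435. The control of MDA-MB-435 stood apart from the other three libraries as the low one. The fold was 1.60 (1.32 to 1.95) in MDA-MB-231, against 6.40 (4.61 to 9.05) in MDA-MB-435, where it ranked 33rd of 16527 genes. The ratio of these folds was 3.99 (2.71 to 5.94), the largest of the 8 genes with a fold in both lines. AKR1C1 rose in the common fit by a log2 fold change of 1.55 with a standard error of 0.354 (edgeR adjusted p = 0.0143). By DESeq2's Wald test the adjusted p was 0.113 for AKR1C1.

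AKR1C3 had 495 and 551 counts (22.2 and 32.9 CPM) in MDA-MB-231, against 116 and 194 counts (4.88 and 10.2 CPM) in MDA-MB-435. Both MDA-MB-231 libraries lay above both MDA-MB-435 libraries. The fold was 1.48 (1.31 to 1.68) in MDA-MB-231, against 2.08 (1.65 to 2.64) in MDA-MB-435, with a ratio of 1.40 (1.07 to 1.84). AKR1C3 rose in the common fit by a log2 fold change of 0.78 with a standard error of 0.190 (edgeR adjusted p = 0.0203), while DESeq2's adjusted p was 0.138. Scaled by total counts, its fold in MDA-MB-435 was 1.94, below the threshold. AKR1C2, the closest copy of AKR1C1, had 9 and 8 counts in MDA-MB-231, against 55 and 66 in MDA-MB-435. With AKR1C1 to AKR1C4 summed, the fold was 1.52 (1.37 to 1.68) in MDA-MB-231, against 2.82 (2.40 to 3.33) in MDA-MB-435.

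**Figure D3:**
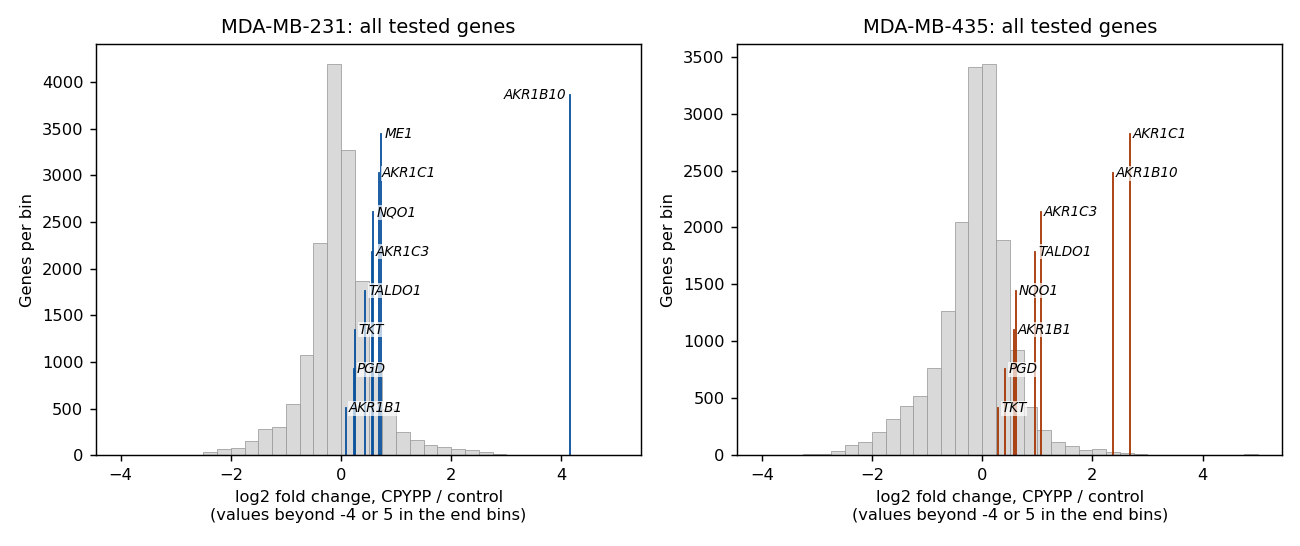
Histogram of the log2 fold change, CPYPP over control, of all tested genes in MDA-MB-231 (left) and MDA-MB-435 (right), in genes per bin, with a line at the value of each of the 9 genes (line heights only separate the names). All lines stand to the right of 0, with AKR1B10 at 4.15 on the left, and AKR1C1 at 2.68 and AKR1B10 at 2.37 on the right.

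The difference in response between the lines could not be tested, because 4 libraries leave no residual degree of freedom for an interaction. By counting error alone, 5 of the 8 ratios of folds lay above 1, those of PGD, TALDO1, AKR1B1, AKR1C1 and AKR1C3. That of AKR1B10 lay below 1, and those of NQO1 and TKT included 1.

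Without CPYPP, ME1, AKR1C1 and AKR1C3 differed most between the lines among the 9. Of the 9, 1 was called higher in MDA-MB-435 than in MDA-MB-231 at a fold over 2, where 23.7% of 18269 genes were, and 4 were called lower, where 21.8% were. AKR1B10 was the higher one, at 2.97-fold (1.14 to 9.09), and PGD (0.438-fold, 0.414 to 0.464), ME1, AKR1C1 (0.209-fold, 0.148 to 0.292) and AKR1C3 (0.220-fold, 0.178 to 0.270) were the lower ones. AKR1B10 had 6 counts in control MDA-MB-231 and 19 in control MDA-MB-435, so it met the count rule only through the line where it was higher. With at least 10 counts asked of both libraries, 0 of the 9 were called higher. Likewise, ME1 met the rule only through MDA-MB-231. AKR1C2, outside the 9, went the other way, with 9 counts in control MDA-MB-231 and 55 in control MDA-MB-435, 5.73-fold (2.81 to 13.2). As the split of reads between AKR1C1 and AKR1C2 is uncertain, so is the size of the AKR1C1 difference. NQO1 stood at 0.830-fold (0.796 to 0.865), TALDO1 at 1.09-fold (1.04 to 1.14), AKR1B1 at 1.28-fold (1.23 to 1.33) and TKT at 1.63-fold (1.58 to 1.68). The median log2 difference of the 9 was -0.27, beside 0.0181 over all genes.

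Per exon length, the genes could be ordered within a library by FPKM, the CPM divided by exon length in kilobases. In control MDA-MB-231, NQO1 had the highest level, 72.5 FPKM, followed by TALDO1 and AKR1B1 at 57.5 each, PGD at 51.4, TKT at 30.8 and ME1 at 18.2. The remaining reductases were far below, with AKR1C3 at 5.67 FPKM, AKR1C1 at 1.01 and AKR1B10 at 0.152. In control MDA-MB-435 AKR1B1 led at 73.4 FPKM, ahead of TALDO1 at 62.6, NQO1 at 60.2, TKT at 50.1 and PGD at 22.5. AKR1C3 at 1.25, AKR1B10 at 0.450 and AKR1C1 at 0.211 were again low, and ME1 was last at 0.0252. After CPYPP, NQO1 still led in MDA-MB-231 at 109 FPKM, while in MDA-MB-435 TALDO1 led at 121 FPKM, ahead of AKR1B1 at 110 and NQO1 at 91.7. TALDO1 and AKR1B1 had the same rounded value in control MDA-MB-231 on this scale, and for AKR1C1, whose annotated exons span 8765 bases, the deposited length lowers the FPKM.

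Genes most like NQO1, PGD and AKR1C1 were sought by the distance between profiles of log2(CPM + 1), each centred on its mean over the 4 libraries, among 9420 protein-coding genes with a mean of at least 10 CPM. Over so few libraries this is a description. TENT5A (distance 0.0389), C18orf25 (0.0515) and DNAJC25 (0.0840) were nearest to NQO1. AHI1 (0.0321), TRIM33 (0.0623) and CDC23 (0.0721) were nearest to PGD. The nearest to AKR1C1 were farther away, namely CEBPG (0.520), ASF1A (0.564) and SLC3A2 (0.630). Within the 9, the closest pair was TKT and AKR1B1 (0.267), followed by TALDO1 and AKR1B1 (0.423).

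The other genes of NADPH supply had folds spread around 1. Of 22 further genes of the pentose phosphate pathway and other NADPH sources, 21 were tested in each line, and in MDA-MB-231 0 were called either way, with a median log2 fold change of -0.12. MDA-MB-435 had 1 called higher and 1 called lower, with a median of 0.01. The higher one was MTHFD2, a mitochondrial folate enzyme, at 3.15-fold (3.02 to 3.29) in MDA-MB-435 and 1.37-fold (1.28 to 1.47) in MDA-MB-231. The lower one was ME3, at 0.321-fold (0.128 to 0.715). In the common fit MTHFD2 rose (log2 fold change 1.07, edgeR adjusted p = 0.00482) and H6PD, which makes NADPH inside the endoplasmic reticulum, fell (log2 fold change -0.67, edgeR adjusted p = 0.0183). PGLS, the lactonase of the oxidative branch, had folds of 0.769 (0.670 to 0.881) and 0.857 (0.746 to 0.985).

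None of the further aldo-keto reductases passed the fold rule. Of 10, 9 were in the table and 4 were tested in each line, with 0 called and medians of -0.08 and -0.02 on the log2 scale, and 0 passed the common test. Among 18 other quinone and carbonyl reductases, 17 were tested, with 0 called in MDA-MB-231 and 1 called higher in MDA-MB-435. That gene was NQO2, a quinone reductase related to NQO1, with 715 and 731 counts in MDA-MB-231, against 472 and 1002 in MDA-MB-435. Its fold was 1.36 (1.23 to 1.51) and 2.64 (2.37 to 2.96). In the common fit 2 of the 17 rose, NQO2 (log2 fold change 0.92, edgeR adjusted p = 0.0100) and AIFM2, a coenzyme Q reductase (0.85, edgeR adjusted p = 0.00138). The medians of this list were 0.08 and 0.04. Of 15 aldehyde dehydrogenases, which oxidise the aldehydes that aldo-keto reductases reduce, 13 and 11 were tested and 0 called, with medians of -0.25 and -0.36. In the common fit 1 of 13 fell, mitochondrial ALDH1B1 (log2 fold change -0.71, edgeR adjusted p = 0.00306).

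**Figure D4:**
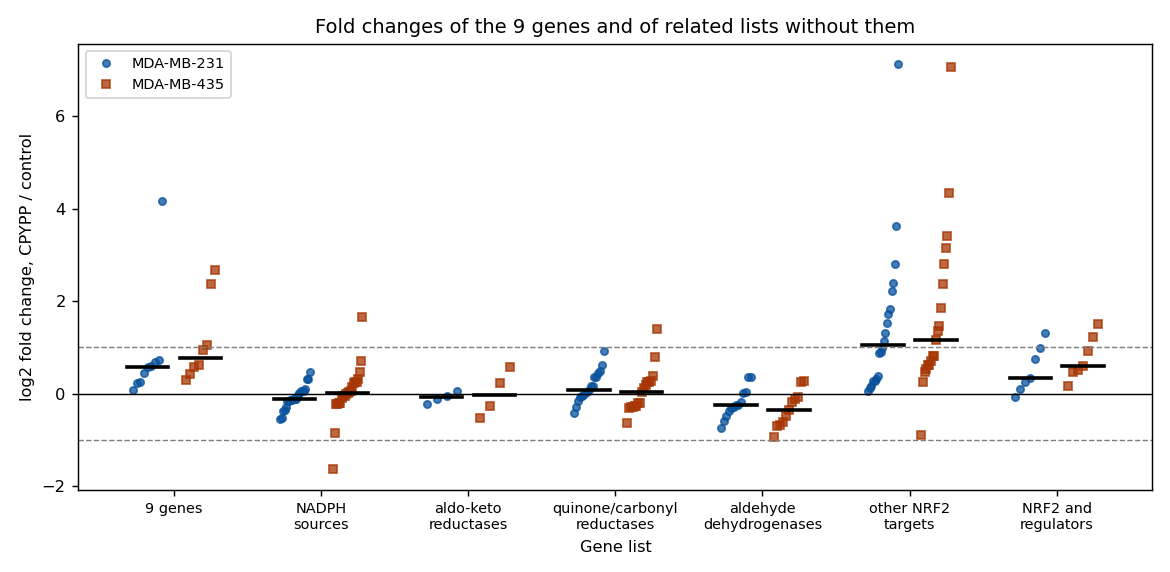
log2 fold change, CPYPP over control, of every tested gene in 7 lists, circles for MDA-MB-231 and squares for MDA-MB-435. Black bars are medians and dashed lines a fold of 2 either way, and genes of the 9 are left out of the other lists. The 9 genes and the other NRF2 targets lie mostly above 0, while the NADPH sources, aldo-keto reductases and quinone reductases centre near 0.

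Set beside other NRF2 targets, the 9 genes had folds below the median target in MDA-MB-231 except for AKR1B10, and in MDA-MB-435 except for AKR1B10 and AKR1C1. Of 20 other targets, 10 were called higher and 0 lower in each line, with median log2 fold changes of 1.06 and 1.15, and 14 rose in the common fit. The study picked 8 of these 20 as upregulated in the same libraries, so the list is not independent evidence of its direction. That choice also bears on the size of its median. A fold below that median thus does not rank the 9 genes among NRF2 targets at large. HMOX1, heme oxygenase, had folds of 139 (119 to 164) and 134 (122 to 147). With MDA-MB-231 first, the folds were 12.3 and 10.5 for OSGIN1, 7.0 and 6.94 for SRXN1, 5.26 and 8.84 for GCLM, 4.64 and 20.3 for SLC7A11, and 3.30 and 5.19 for TXNRD1. The interval of AKR1B10 in MDA-MB-231 (7.82 to 49.9) held the fold of OSGIN1. In MDA-MB-435 the fold of AKR1B10, 5.18, was below those of all 6 targets named. Its interval there (3.11 to 9.05) held the folds of TXNRD1, SRXN1 and GCLM. Of NRF2 itself (NFE2L2) and 6 of its partners and regulators, 1 was called higher in MDA-MB-231, against 2 in MDA-MB-435, with medians of 0.35 and 0.59, and 4 of 7 rose in the common fit. MAFG, a small MAF partner, had folds of 2.46 and 2.32, and BACH1, the repressor, 1.98 and 2.82. NFE2L2 had folds of 1.27 (1.21 to 1.33) and 1.88 (1.81 to 1.96), with a common log2 fold change of 0.63 (edgeR adjusted p = 0.0124). KEAP1 had 1.20 (1.11 to 1.29) and 1.39 (1.31 to 1.46).

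The promoters of the 9 genes were searched for the core of the antioxidant response element, TGACNNNGC, on both strands, from 250 bases before to 50 after each start in RefSeq (GRCh38.p14). Of the 9 genes, 8 had an entry, with AKR1B10 the exception. Some genes have more than 1 promoter entry, and the core occurred in 2 of the 10 entries of these 8 genes, those of PGD and ME1, beside 13.3% of all 35116. It was found in 4 of 15 entries of the other NRF2 targets. Stretches around the matches are shown with the core in capitals, read 5′ to 3′ along the gene.
PGD, chr1:10398814-10398921, plus strand: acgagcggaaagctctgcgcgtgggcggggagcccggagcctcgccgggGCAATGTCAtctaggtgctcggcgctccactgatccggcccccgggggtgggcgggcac
ME1, chr6:83431130-83431238, minus strand: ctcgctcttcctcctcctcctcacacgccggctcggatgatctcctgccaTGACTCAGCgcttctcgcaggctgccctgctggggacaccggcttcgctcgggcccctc
In PGD the core lies on the opposite strand, at -201 to -193 from the start. The stretch lies within the span of PGD in the count table, which begins at 10398592. In ME1 it lies on the strand of the gene at -137 to -129, and it overlaps a match to the AP-1 motif TGANTCA, which is held by 7.71% of all promoters. A further ME1 match lies at 11 to 19 after the start. A match is a run of letters, not a bound site, and the window leaves out distal elements.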

How the data were processed

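Both lines, control or CPYPP, were sequenced as poly(A) RNA in 4 libraries, 1 per condition. The authors deposited raw read counts per gene, not normalized, with exon lengths and positions. The submitters' processing notes name cutadapt 1.9.1, HISAT2 2.2.1, HTSeq 0.6.1, DESeq2 and the build GRCh37.p13, with no roles. The strand setting is not given in the sources used here. Of 58254 identifiers shared with GENCODE v29, 58196 overlapped its GRCh38 positions, so coordinates are given as GRCh38. NQO1, ME1 and AKR1C3 overlap genes on the opposite strand that had 0 counts in every library.

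The 9 genes and the gene lists were chosen with earlier results of these data known. All 9 genes are described in full. Of the other lists, genes over 2-fold in either line are named, at most 6 per list by mean absolute log2 fold change. For NQO1, PGD and AKR1C1 the 3 nearest profiles are named. AIFM2, H6PD, ALDH1B1, PGLS, ME2, AKR1C2, NFE2L2, KEAP1, DCT, TYR, MITF, EGFR, AXL, CAV1, CD44 and VIM fall outside that rule and were chosen after their values were seen. Some genes of the lists are not reported here by name.

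Counts were normalised by TMM over the 4 libraries (factors 0.974 to 1.05). Folds within a line carry exact Clopper-Pearson 95% intervals, both from the counts as they stand. For log2 fold changes, ranks and calls, counts of 3 or fewer were set to 3. The common effect was tested with edgeR 4.0.16 in R 4.3.3 (glmQLFit, glmQLFTest, filterByExpr, line as a block, adjusted p threshold 0.05), with a biological coefficient of variation of 0.121. Standard errors of the common effect were not taken from the fit but derived, as the absolute log2 fold change over the square root of the test's F statistic. Labels name no separate cultures, so p-values measure the spread between these libraries. Alternatives concerned scaling, filters, fold thresholds, protein-coding genes, DESeq2 1.42.0, the block and summed paralogs. Scaling by TMM within each line was added after seeing the data. Figures were drawn with matplotlib 3.10.9. The procedures were tested on simulated data.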

Additional observations from a re-analysis of the deposited data

How the results depend on the processing

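Of 157 values of the 9 genes under alternatives, 127 stayed as they were (folds within their counting interval, common effects on the same side of the test), 19 moved, 7 lost and 4 gained the common call, and 0 called values reversed. Of 8 further values from summed paralogs, 4 moved. The log2 value of ME1, which was not called, turned to -0.25 by DESeq2. No scaling moved all folds by more than 0.099 on the log2 scale. The cause of these shifts was not tested.

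In MDA-MB-231, 1558 genes were higher without a filter on low counts. With 10 counts in both libraries 451 were higher and 307 lower, with 50 counts in 1 library 263 and 234, at 1.5-fold 1853 and 2173, at 4-fold 201 and 118, and among protein-coding genes 473 and 371. Of the 9 genes, 0 were higher with 10 counts in both libraries and 4 at 1.5-fold.

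In MDA-MB-435, 1053 genes were higher without the filter. With 10 counts in both libraries 357 were higher and 724 lower, with 50 counts 272 and 574, at 1.5-fold 1547 and 3279, at 4-fold 132 and 281, and among protein-coding genes 343 and 721. Of the 9 genes, 5 were higher at 1.5-fold.

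Between the controls, with MDA-MB-435 set against the other line, 2239 genes were higher and 2042 lower with 10 counts in both libraries, 2637 and 2577 with 50 counts, and 2093 and 2116 at 4-fold, and 2592 protein-coding genes were higher. Of the 9 genes, 0 were higher with 10 counts in both libraries, with 50 counts or at 4-fold, and 2 at 1.5-fold.

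In the common fit, 1087 genes fell when scaled by total counts and 291 by DESeq2's Wald test, and 1363 rose with upper-quartile scaling. Of the 9 genes, 8 rose with upper-quartile scaling and 2 by DESeq2, which gave no adjusted p for AKR1B10. Without the cell line block edgeR called 0 higher, 0 lower and 0 of the 9, with 162 genes at an unadjusted p under 0.05, beside 3590 with the block and 1971 by DESeq2. No paired analysis was possible because the labels give no replicate numbers, beyond the pairing of control with CPYPP that the block for the line makes.

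Depth limits AKR1B10 in both controls (6 and 19 counts) and ME1 in MDA-MB-435, where 3 counts are worth between 0.126 and 0.157 CPM.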

Other observations

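On the stretch of chromosome 6 around ME1, SNAP91, which lies beyond it, also had no counts in MDA-MB-435, where it had 0 and 0 against 106 and 118 in MDA-MB-231, control first. The other genes looked at there were counted in both lines. All were kept by a minimum of counts in control MDA-MB-231, so genes scarce in that library were left out. PGM3 and CYB5R4 had fewer counts in control MDA-MB-435 (1204 and 568) than in control MDA-MB-231 (2544 and 1483). RWDD2A had 182 and 162 counts in MDA-MB-231, against 139 and 192 in MDA-MB-435. TPBG and CEP162 had more counts in control MDA-MB-435 (1380 and 286) than in control MDA-MB-231 (1049 and 224).

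PRDX1, a peroxiredoxin of the NRF2 target list, had 8711 and 7879 counts in MDA-MB-231, against 0 and 0 in MDA-MB-435. DOP1A, near ME1, had 365 and 172 counts in MDA-MB-231, against 323 and 165 in MDA-MB-435. These genes were chosen after their values were seen.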
